A study of Homo sapiens with 4 samples.

Results

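The actin cytoskeleton was followed here through 49 genes of the RNA-seq table, out of 23622 genes in all. They are the actins ACTB and ACTG1, the linkers built around filamin A (FLNA) and plectin (PLEC), the myosins and tropomyosins, the machinery that starts and lengthens filaments, the proteins that hold monomers or cap and cut filaments, and RHOA, RAC1 and CDC42. The genes were matched by symbol after the Ensembl identifiers had been mapped, and the list had been selected with the measured differences between sh-IRF1 and sh-NC in view. Counts of members that differ are therefore given as a description, with no test of the list as a whole. The adjusted p-values behind the calls of single members come from the same contrast that was in view at selection. All 49 members reached a normalized count of 10 in 2 or more libraries, the filter that left 14120 genes to test.

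The cells were MV4-11, a human acute myeloid leukemia line that the labels give as wild type in all 4 libraries. They formed 2 groups of 2 libraries, sh-NC with a control hairpin RNA and sh-IRF1 with a hairpin RNA against IRF1, an interferon regulatory transcription factor, both delivered by lentivirus from the pLKO.1 vector. The labels do not say which hairpin each sh-IRF1 library carried, when RNA was taken or whether replicates were separate infections, so the spread between replicates may be technical. The study's methods describe selection of infected cells with puromycin before the knockdown cells were collected. The comparison asks which transcripts change when IRF1 is lowered.

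Actin monomers join into filaments that push membranes forward, and the cell keeps a store of free monomers bound to thymosins and profilin. The Arp2/3 complex branches filaments when WASP and WAVE proteins switch it on, formins lengthen straight filaments, cofilin and gelsolin family proteins cut or cap them, and myosin II pulls on them. Filamins, actinins and plectin tie filaments to one another, to adhesion sites and to intermediate filaments. Blood cells use this system to crawl, to engulf particles and to round up in suspension.

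IRF1 itself read 785 and 738 normalized counts in sh-NC and 430 and 432 in sh-IRF1, 56.6% of the control (log2 -0.82 ± 0.09, SE). Of its exonic bases, 22.9% are shared with an antisense gene, and the use of strand in counting is not given in the sources used here. The libraries held 17635908 to 18695337 reads, with 3.92% to 4.51% of them mitochondrial. All 10 myeloid leukemia markers were detected, with 2 higher (CSF3R and SPI1), 4 lower (MPO, PTPRC, FLT3 and CEBPA) and 4 not called. MPO read 477 and 443 against 185 and 158, and FLT3 17391 and 17412 against 12745 and 12634. Of 12 genes listed as markers of other cell types, 9 were not in the table used here and COL1A1 read at most 4.97. CD79A (43.1 and 50.3 against 190 and 250) and PECAM1 (1159 and 1399 against 3178 and 3120) were read in both groups and were higher in sh-IRF1. The 12 markers of monocyte maturation summed to 333 and 335 reads per 1000000 in sh-NC and 378 and 381 in sh-IRF1, with 2 of 10 tested higher (LYZ and ITGAM) and 6 lower (CD14, S100A9, FCGR1A, CD86, CTSS and CSF1R). CD14 read 38.0 and 42.1 against 10.9 and 1.87, and FCN1 at most 2.81 in any library. Beside these marker counts, 20.3% of all genes tested were higher and 21.9% lower. The part of the marker shifts in the values below was not tested. In bulk RNA, fewer cells of a type and less RNA per cell cannot be told apart.

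Lowering IRF1 went with movement in both directions inside the actin system. CAPG, GSN, MYO1G, PLEC, FLNA and ACTN4 were the 6 members higher by more than 0.5 on the log2 scale, and TPM3, ARPC3, RAC1, TMSB4X and TMSB10 the 5 lower by more than 0.5. Of these, ACTN4 stood at 0.48 without sh-IRF1 replicate 2 and 0.44 after a correction for GC content, TMSB4X at -0.47 without sh-NC replicate 1, -0.48 without sh-IRF1 replicate 2 and -0.45 after that correction, and TMSB10 at -0.42 without sh-NC replicate 1 and -0.47 when scaled by total reads. MYO1F passed 0.5 when scaled by total reads (0.53). At any fold, limma (Benjamini-Hochberg adjusted p under 0.05, over 14120 genes) put 24 of the 49 members higher and 15 lower, and these are called members below. Scaling by total reads gave 30 higher and 13 lower, and leaving out 1 library gave 20 to 27 higher and 13 to 14 lower. Over all genes tested, 20.3% were higher and 21.9% lower at any fold, and 8.27% were higher and 7.56% lower beyond 0.5. Since the members were selected on this contrast, nothing is read from the difference in shares. The median log2 difference over the members was 0.08, beside -0.0019 over all genes tested, and the median size of the difference, whatever its sign, was 0.20 beside 0.26. Over 4227 genes with a mean of at least 1000 normalized counts, which most members reach, these medians were -0.04 and 0.19. Of those 4227 genes, 1187 were higher and 1632 lower at any fold, and 212 were higher and 277 lower beyond 0.5. Without the 12 members that share more than 10% of their exonic bases with another gene, 17 were higher and 13 lower.

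**Figure D1:**
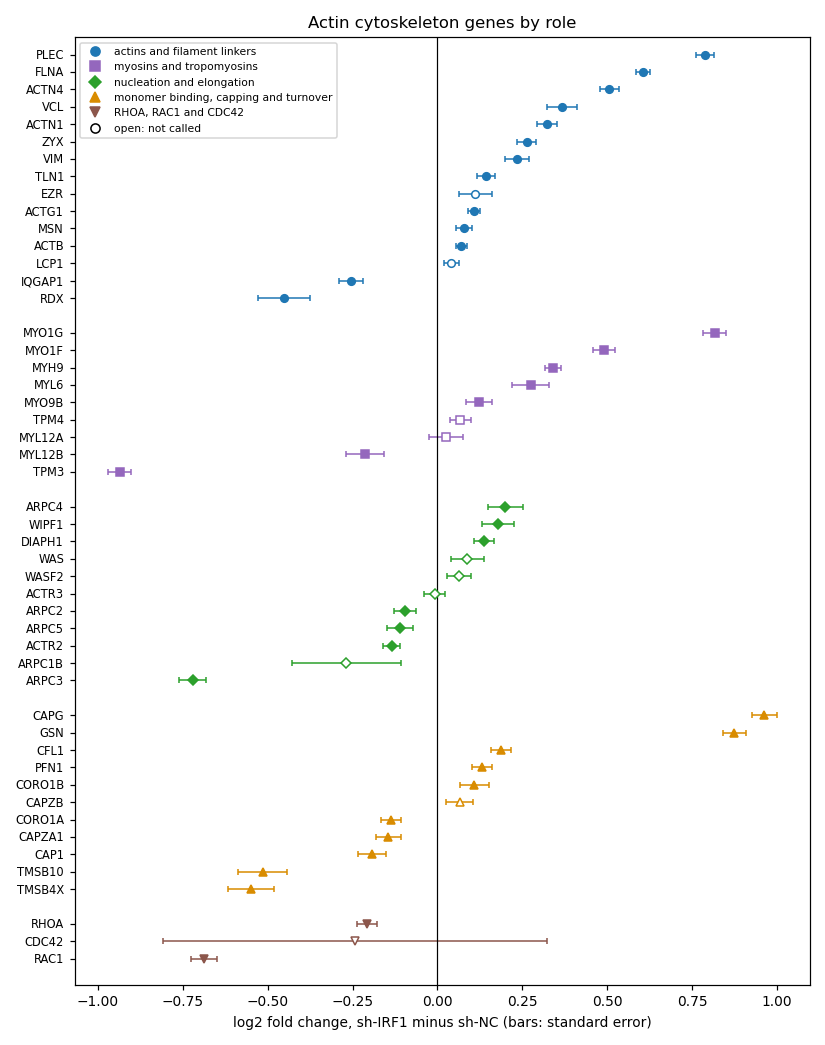
Log2 fold change of each of the 49 members (x axis, sh-IRF1 minus sh-NC, 2 libraries a group, bars are standard errors), grouped by role and colored by role on the y axis. Filled points have an adjusted p under 0.05 and open points do not. CAPG lies farthest to the right at 0.96 and TPM3 farthest to the left at -0.94.

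The members together took 3.20% and 3.15% of all reads in sh-NC and 3.61% and 3.62% in sh-IRF1. Levels between genes were compared per length, as reads per kilobase of the canonical transcript per 1000000 reads. On that scale ACTB stood at 3502 and ACTG1 at 1863 in sh-NC, followed by TMSB4X at 882, PFN1 at 756 and CFL1 at 513. FLNA stood at 217 and PLEC at 43.4. At the low end were RDX at 12.2, ARPC1B at 7.46 and CDC42 at 0.0810. The values of ARPC1B and CDC42 are uncertain. Of the exonic bases of ARPC1B, 25.7% are shared with another gene. For CDC42, 15.2% are shared, and a pseudogene held 157% as many reads as the gene itself. Low expression of these genes is therefore not read from their low values.

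Promoters were searched for the 2 motifs that bear most directly on this list and this knockdown, the CArG box bound by SRF, the factor that drives many actin genes (CC, any 6 of A or T, GG), and the IRF motif GAAANNGAA, on both strands and with overlaps allowed. RefSeq promoters of GRCh38.p14, 250 bases before to 50 after a gene's start, matched 44 of the 49 members. ACTB, ARPC1B, PLEC, RAC1 and WASF2 had no entry. A CArG box was found in 4 of the 44 (ACTG1, ACTN1, FLNA and TPM4), beside 1.60% of 27305 genes with a promoter. The IRF motif was found in 3 (ARPC3, TLN1 and WIPF1), beside 9.86% of all genes. A gene was counted if any of its promoters held the motif, and the 44 members had 73 promoters, beside 35116 for all genes. By promoter, the CArG box was in 5.48% of those of members and 1.29% of all. The IRF motif was in 4.11% and 8.11%. The 4 CArG windows and that of ARPC3, a member that fell by more than 0.5, are shown with 25 bases on either side, read along the gene, with the motif in capitals.
FLNA (chrX:154374694-154374753, minus strand): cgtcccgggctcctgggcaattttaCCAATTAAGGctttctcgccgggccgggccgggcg
ACTG1 (chr17:81512859-81512918, minus strand): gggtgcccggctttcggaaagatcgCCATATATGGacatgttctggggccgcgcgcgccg
ACTN1 (chr14:68977703-68977762, minus strand): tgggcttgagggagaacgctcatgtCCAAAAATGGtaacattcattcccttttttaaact
TPM4 (chr19:16067340-16067399, plus strand): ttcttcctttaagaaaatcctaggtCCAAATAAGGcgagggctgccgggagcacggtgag
ARPC3 (chr12:110450328-110450386, minus strand): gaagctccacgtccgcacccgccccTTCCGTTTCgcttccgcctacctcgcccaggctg
In ARPC3 the IRF motif reads on the opposite strand from the gene. The CArG boxes of FLNA and ACTG1 both begin 94 bases before the start. The members with the largest rise and the largest fall, CAPG and TPM3, held neither motif in the start nearest to their canonical transcript, which for TPM3 lies 8882 bases from it. Both windows are given whole, in lower case because no letters matched.
CAPG (chr2:85410317-85410616, minus strand): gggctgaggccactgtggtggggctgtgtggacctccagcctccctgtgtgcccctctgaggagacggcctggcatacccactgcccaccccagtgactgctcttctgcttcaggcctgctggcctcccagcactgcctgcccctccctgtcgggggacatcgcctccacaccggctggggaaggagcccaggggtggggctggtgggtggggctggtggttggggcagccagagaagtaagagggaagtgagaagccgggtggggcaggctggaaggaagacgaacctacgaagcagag
TPM3 (chr1:154183169-154183468, minus strand): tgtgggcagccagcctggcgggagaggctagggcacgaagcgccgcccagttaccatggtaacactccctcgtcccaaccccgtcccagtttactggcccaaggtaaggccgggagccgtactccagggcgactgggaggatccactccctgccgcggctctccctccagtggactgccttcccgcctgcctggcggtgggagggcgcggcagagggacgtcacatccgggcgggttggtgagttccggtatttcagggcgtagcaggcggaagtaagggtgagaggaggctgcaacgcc
The 4 genes with a CArG box did not move alike. Their log2 differences were 0.60 for FLNA, 0.32 for ACTN1, 0.11 for ACTG1 and 0.07 for TPM4, and the last was not called. The 3 with the IRF motif stood at -0.72 for ARPC3, 0.14 for TLN1 and 0.18 for WIPF1.

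The actins changed little in size. ACTB, the beta actin, read 115490 and 114360 normalized counts in sh-NC and 121283 and 119980 in sh-IRF1, a log2 difference of 0.07 ± 0.02 (SE). ACTG1, the gamma actin, read 65199 and 64291 against 70193 and 69341, a difference of 0.11 ± 0.02. Both groups lay apart in each gene, though the shift in ACTB was 1.05-fold. The rise in ACTB was not called without sh-IRF1 replicate 1 (0.06) or after a correction for GC content (0.02).

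Among the 15 actins and filament linkers, 11 rose, 2 fell and 2 were not called, with a median log2 difference of 0.14. Over all genes tested, 20.3% were higher and 21.9% lower. Because the members were selected on this contrast, nothing is read from the counts by role. PLEC, the giant linker between actin and intermediate filaments, read 11696 and 11560 in sh-NC and 20087 and 20073 in sh-IRF1, a 1.73-fold rise (log2 0.79 ± 0.03). FLNA, the crosslinker that joins filaments into networks and anchors them to integrins (chrX:154348524-154374634, hg38), read 33403 and 33315 against 50605 and 50797, a 1.52-fold rise (log2 0.60 ± 0.02). In both genes the replicates of a group lay close together and the groups far apart. FLNA took 0.185% and 0.184% of all reads in sh-NC and 0.287% and 0.290% in sh-IRF1, and its level per length went from 6.16% and 6.20% of that of ACTB to 8.89% and 9.02%.

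The actinins, which bundle filaments, also rose, with ACTN4 at 0.51 ± 0.03 and ACTN1 at 0.32 ± 0.03. Of the adhesion site proteins, vinculin (VCL) rose by 0.37, zyxin (ZYX) by 0.26 and talin 1 (TLN1), which couples integrins to actin, by 0.14. The intermediate filament protein vimentin (VIM), which plectin binds, rose by 0.23. Exons of VIM, ACTN4 and VCL are shared with other genes over 24.6%, 14.2% and 11.1% of their bases.

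The ERM proteins, which pin actin to the plasma membrane, were split. Radixin (RDX) read 929 and 1016 in sh-NC and 707 and 713 in sh-IRF1, 73.0% of the control (log2 -0.45 ± 0.08). Moesin (MSN), the most abundant of them here with a level per length of 402 in sh-NC, rose by 0.08, a call lost without sh-IRF1 replicate 2 (0.06), and ezrin (EZR) stood at 0.11 ± 0.05, not called, though it was without sh-NC replicate 1 (0.16). IQGAP1, a scaffold that binds RAC1 and CDC42, read 6232 and 6390 against 5293 and 5282, 83.8% of the control (log2 -0.26 ± 0.04). L-plastin (LCP1), the filament bundler of white blood cells, was among the most abundant members and stood at 0.04 ± 0.02, not called. Of its exonic bases, 19.0% are shared.

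**Figure D2:**
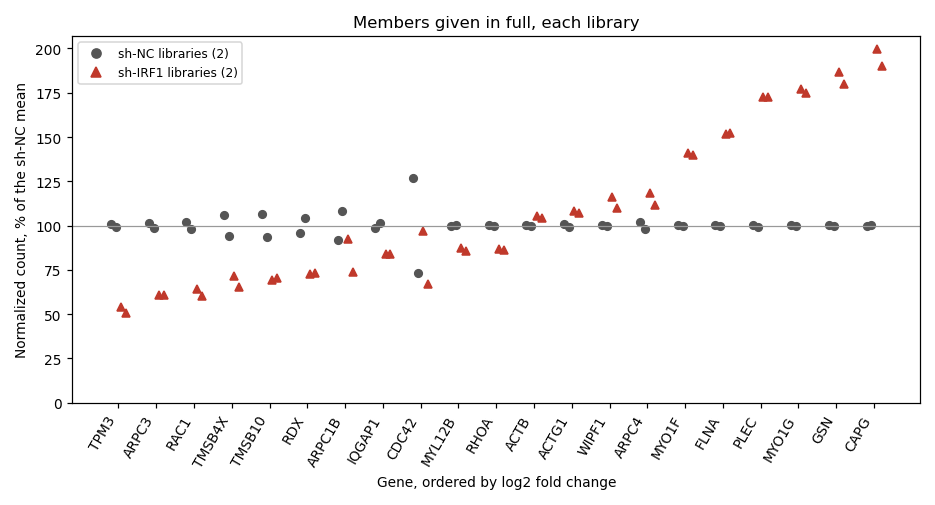
Normalized count in each library as a percentage of the gene's sh-NC mean (y axis, from 0) for the 21 members given in full (x axis, ordered by log2 fold change). Circles are the 2 sh-NC and triangles the 2 sh-IRF1 libraries. The groups overlap in ARPC1B and CDC42 and lie apart in the other 19. These members were chosen by name or as the highest and lowest fold changes of their role. Nothing is therefore read from how many lie apart.

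Of the 9 myosins and tropomyosins, 5 rose, 2 fell and 2 were not called, beside 20.3% higher and 21.9% lower over all genes tested. MYO1G, a membrane-bound class I myosin of blood cells (chr7:44962662-44979088), read 5271 and 5247 in sh-NC and 9313 and 9204 in sh-IRF1, a 1.76-fold rise (log2 0.82 ± 0.03). MYO1F, its relative in immune cells, read 6289 and 6253 against 8850 and 8767, a 1.40-fold rise (log2 0.49 ± 0.03). In each gene both sh-IRF1 libraries lay above both control libraries.

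Nonmuscle myosin II, the contractile motor, is built of heavy and light chains. The heavy chain MYH9 rose by 0.34 ± 0.02 and the essential light chain MYL6 by 0.27 ± 0.05, with 18.3% of the exonic bases of MYL6 shared. The paired regulatory light chains did not move together. MYL12B read 1648 and 1660 against 1441 and 1412, 86.2% of the control (log2 -0.21 ± 0.06), and its fall was not called after the GC correction (-0.08), while MYL12A stood at 0.03 ± 0.05 with overlapping groups. MYO9B, an unconventional myosin, rose by 0.12 ± 0.04. Its call was lost without sh-NC replicate 2 (0.10) or sh-IRF1 replicate 2 (0.08), and after the GC correction (0.06).

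Tropomyosins lie along filaments and set which motors and cutters can reach them. TPM3 had the largest fall of all members (chr1:154155308-154194648), with 11572 and 11416 normalized counts in sh-NC and 6233 and 5790 in sh-IRF1, 52.3% of the control (log2 -0.94 ± 0.03). TPM4 stood at 0.07 ± 0.03, not called, though it was without sh-NC replicate 1 (0.11). Per length, TPM3 stood at 41.2% and 43.1% of the level of TPM4 in the sh-NC libraries and at 21.9% and 20.2% in the sh-IRF1 libraries.

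The nucleation and elongation genes moved least, with 3 of 11 higher, 4 lower, 4 not called and a median of -0.0080. The shares over all genes tested were 20.3% higher and 21.9% lower. ARPC3, a subunit of the Arp2/3 complex (chr12:110434823-110450422), was the exception in size, at 4854 and 4698 in sh-NC and 2900 and 2894 in sh-IRF1, 60.7% of the control (log2 -0.72 ± 0.04). The groups lay far apart beside the gap between replicates. ACTR2 fell by 0.14, ARPC5 by 0.11 and ARPC2 by 0.10, and ACTR3 stood at -0.01 ± 0.03. ARPC4 read 1925 and 1850 against 2233 and 2104, a log2 difference of 0.20 ± 0.05, with 28.9% of its exonic bases shared, chiefly with the readthrough gene ARPC4-TTLL3.

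ARPC1B read 188 and 221 in sh-NC and 189 and 151 in sh-IRF1, with overlapping groups (log2 -0.27 ± 0.16) and a share of 25.7% of its exonic bases that another gene also covers. Its relative ARPC1A, from the list of other actin genes, read 479 and 377 against 538 and 623. Of the exonic bases of ARPC1A, 58.6% are shared, and its main partner is the same gene as that of ARPC1B. Per length, ARPC3 stood at 86.9% and 87.1% of the level of ARPC2 in sh-NC and at 57.7% and 55.2% in sh-IRF1. Calls for ARPC2 and ARPC5 were lost under scaling by total reads, that for ARPC2 also without replicate 1 of either group (-0.07 in both), and that for ARPC5 without sh-NC replicate 2, sh-IRF1 replicate 1 or sh-IRF1 replicate 2 (-0.11, -0.10 and -0.12). After the GC correction ACTR2 and ARPC5 stood at 0.04 and 0.05.

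**Figure D3:**
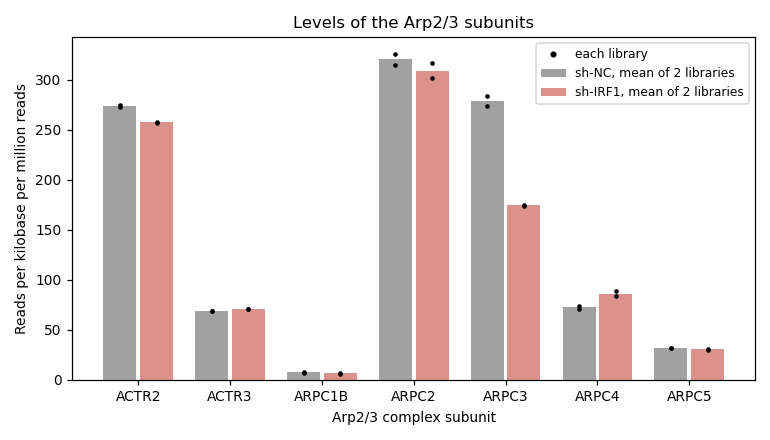
Levels of the Arp2/3 subunits among the members (x axis) as reads per kilobase of canonical transcript per 1000000 reads (y axis). Bars are means of 2 libraries, gray for sh-NC and red for sh-IRF1, and dots are single libraries. ARPC3 goes from 279 to 174, while ACTR2, ACTR3, ARPC2 and ARPC5 each keep close to their control level.

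Of the members that activate the complex, WIPF1 was called and WAS and WASF2 were not. WIPF1, the partner that stabilizes WASP, read 2335 and 2314 against 2706 and 2561, a 1.13-fold rise (log2 0.18 ± 0.05). WAS and WASF2, the WASP and WAVE2 proteins, stood at 0.09 ± 0.05 and 0.06 ± 0.04. The formin DIAPH1, which RHOA activates, rose by 0.14 ± 0.03. Calls for WIPF1 and ARPC4 were lost without sh-IRF1 replicate 1, at 0.14 and 0.16.

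Proteins that bind monomers and proteins that cap and cut filaments moved in both directions, with 5 of 11 higher, 5 lower and 1 not called. The shares over all genes tested were 20.3% higher and 21.9% lower. CAPG, a gelsolin family protein that caps filament ends (chr2:85394753-85418432), read 3635 and 3642 in sh-NC and 7258 and 6923 in sh-IRF1, a 1.95-fold rise (log2 0.96 ± 0.04). GSN, gelsolin, which cuts and caps (chr9:121207794-121332843), read 4718 and 4688 against 8774 and 8474, a 1.83-fold rise (log2 0.87 ± 0.03). Per length, CAPG and GSN together stood at 4.84% and 4.89% of the summed level of ACTB and ACTG1 in sh-NC, and at 8.88% and 8.60% in sh-IRF1.

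The thymosins, small peptides that hold actin monomers in reserve, fell together. TMSB4X (chrX:12975110-12977227) read 10510 and 9356 in sh-NC and 7102 and 6468 in sh-IRF1, 68.3% of the control (log2 -0.55 ± 0.07). TMSB10 read 1251 and 1095 against 812 and 826, 69.8% of the control (log2 -0.51 ± 0.07). Their control replicates spread more widely than those of CAPG, and in neither gene did the groups overlap. Per length they stood at 20.1% and 18.0% of the summed actin level in sh-NC and at 12.7% and 11.9% in sh-IRF1.

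Profilin (PFN1), which feeds monomers to growing ends, rose by 0.13 ± 0.03, and cofilin (CFL1), which severs old filaments, by 0.19 ± 0.03. The cyclase-associated protein CAP1 fell by 0.19 ± 0.04. Of the capping protein pair, CAPZA1 fell by 0.14 and CAPZB stood at 0.07 ± 0.04, not called. The coronins, which help disassemble branched networks, parted, with CORO1A lower by 0.14 and CORO1B higher by 0.11. Shared exonic bases made up 19.0% of CFL1, 11.1% of CORO1A and 17.0% of CORO1B. Calls for PFN1, CORO1B and CAPZA1 were lost after the GC correction, and that for CORO1B also with no filter, by DESeq2, and without sh-NC replicate 2, sh-IRF1 replicate 1 or sh-IRF1 replicate 2 (0.08, 0.08 and 0.14).

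RAC1, which drives the WAVE complex and membrane ruffles (chr7:6374527-6403967), read 6320 and 6083 in sh-NC and 3962 and 3747 in sh-IRF1, 62.2% of the control (log2 -0.69 ± 0.04). RHOA, which drives contraction, read 10856 and 10816 against 9389 and 9369, 86.6% of the control (log2 -0.21 ± 0.03), with 19.0% of its exonic bases shared. CDC42, the switch for filopodia, read 19.5 and 11.3 against 14.9 and 10.3, with overlapping groups (log2 -0.24 ± 0.57). A single pseudogene of CDC42 in the table held 157% as many reads as CDC42 itself. Of the exonic bases of CDC42, 15.2% are shared, so its reads are uncertain. RAC2, the blood cell form of RAC, read 7818 and 7813 against 7265 and 7380, and RAC1 per length went from 51.5% and 49.6% of its level to 34.8% and 32.4%.

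The members' differences went with the GC content of their transcripts. Across the 49 members the log2 difference and GC content had a Spearman correlation of 0.69 and a Pearson r of 0.63. These genes share the same 4 libraries and their depth, and they are not independent replicates. Over 4181 other genes with a mean of at least 1000 normalized counts the Spearman correlation was 0.29, over 14055 genes tested it was 0.08, and over 116 other actin genes it was -0.07. Transcript length went less closely with the difference, with a Spearman correlation of 0.21 over the members.

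The 17 members of lowest GC content (35.0% to 46.2%) had a median log2 difference of -0.21, with 1 higher and 12 lower, and 1611 other genes in that range with a mean of at least 1000 had a median of -0.14. For the 16 members of middle GC content (46.9% to 55.5%) the medians were 0.11 and -0.0007. The 16 members of highest GC content (57.3% to 66.8%) had a median of 0.30, with 13 higher and 1 lower, beside a median of 0.06 over 1031 other genes. Whatever their GC content, 20.3% of all genes tested were higher and 21.9% lower. Shares called among the other genes of each GC range are not given here. After a GC curve drawn over 4226 genes was subtracted, a step chosen after seeing the data, 25 members were higher and 10 lower, 30 of the 39 calls were kept in the same direction, and the Spearman correlation over the members was 0.49. The largest differences then stood at 0.90 for CAPG, 0.81 for GSN, 0.76 for MYO1G and PLEC, 0.55 for FLNA, -0.83 for TPM3, and -0.59 for both ARPC3 and RAC1. CAPZA1, ACTR2 and ARPC5 changed sign and were not called, and ACTR3 (0.20), MYL12A (0.15), TPM4 (0.13), LCP1 (0.13) and EZR (0.12) were called higher.

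**Figure D4:**
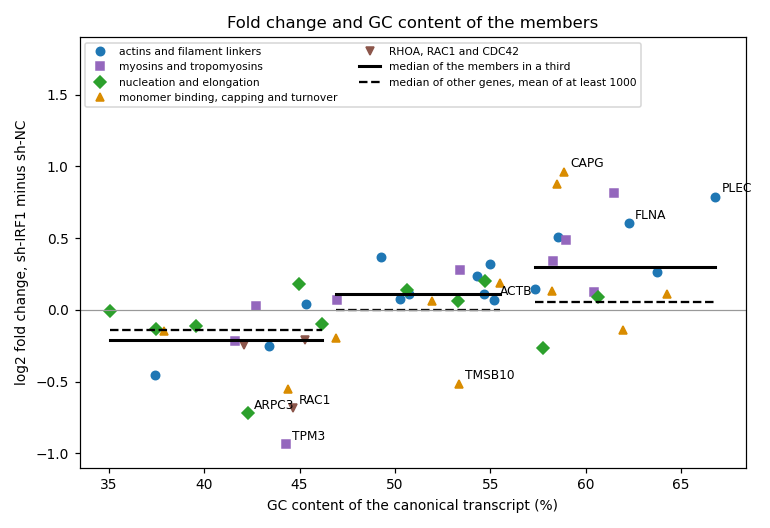
Log2 fold change (y axis, sh-IRF1 minus sh-NC) of the 49 members against the GC content of the canonical transcript (x axis, %), with symbols by role. Solid lines are the medians of the members of lowest, middle and highest GC content (-0.21, 0.11 and 0.30) and dashed lines those of other genes with a mean of at least 1000 in the same range (-0.14, -0.0007 and 0.06).

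Outside the members, 133 further genes of the actin system were listed from general knowledge, with earlier results of these data known. Their counts are a description. The table held 121 of the listed genes, and 116 were tested. Of these, 37 rose and 32 fell at any fold, and 12 rose and 9 fell beyond 0.5, beside the shares of all genes given above. Scaling by total reads in place of the deposited values gave 43 higher and 23 lower. Their median log2 difference was 0.02, beside -0.0019 over all genes, and the median size was 0.24 beside 0.26. By role, 7 rose and 8 fell among 27 other linkers, 5 and 1 among 13 other myosins and tropomyosins, 8 and 9 among 26 nucleation factors, and 6 and 6 among 19 monomer and capping proteins.

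The 5 largest rises among these genes that met the rule for naming, which asks for groups that do not overlap and a mean of 50 or more, were in MYH10, RHOH, LSP1, DST and LPXN. MYH10, the other common heavy chain of nonmuscle myosin II, read 104 and 74.0 in sh-NC and 227 and 226 in sh-IRF1 (log2 1.36 ± 0.18, limma adjusted p = 3.1e-08). RHOH read 166 and 117 against 343 and 314 (log2 1.23 ± 0.16, limma adjusted p = 5.6e-09). LSP1, a leukocyte actin-binding protein, read 290 and 271 against 589 and 577 (log2 1.05 ± 0.11, limma adjusted p = 1.7e-11). DST, dystonin, a relative of plectin, read 158 and 167 against 307 and 290 (log2 0.87 ± 0.14, limma adjusted p = 1.9e-06). LPXN, leupaxin, the paxillin of blood cells, read 1466 and 1492 against 2368 and 2425 (log2 0.70 ± 0.05, limma adjusted p = 1.4e-15).

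The 5 largest falls that met the same rule for naming were in nucleation factors and adhesion proteins. WASF1, a WAVE protein like the member WASF2, read 567 and 567 in sh-NC and 223 and 248 in sh-IRF1 (log2 -1.27 ± 0.11, limma adjusted p = 3.6e-13). ABI3, a subunit of the WAVE complex, read 64.6 and 87.3 against 28.8 and 32.8 (log2 -1.26 ± 0.30, limma adjusted p = 0.00057). ENAH, an elongation factor that binds filament ends, read 112 and 115 against 46.8 and 75.9 (log2 -0.92 ± 0.24, limma adjusted p = 0.0017), and its call was lost without sh-IRF1 replicate 1 (-0.57). PXN, paxillin, read 74.9 and 96.5 against 43.8 and 52.5 (log2 -0.81 ± 0.26, limma adjusted p = 0.011), with 27.2% of its exonic bases shared. Its call was lost without sh-NC replicate 2 (-0.63) or without sh-IRF1 replicate 1 (-0.69). The formin FMNL3 read 630 and 577 against 348 and 369 (log2 -0.75 ± 0.10, limma adjusted p = 2.6e-08), with 19.7% of its exonic bases shared.

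Further genes, chosen after their values were seen, touch the members directly. The LIM kinases, which inactivate cofilin, both rose, LIMK1 from 2524 and 2548 to 3675 and 3866 (limma adjusted p = 2.4e-15) and LIMK2 from 274 and 273 to 398 and 432 (limma adjusted p = 3.7e-05). PAK1, a kinase that RAC1 switches on, rose by 0.53 ± 0.06, with 16.0% of its exonic bases shared. SSH1, the phosphatase that reactivates cofilin, rose by 0.44 ± 0.06. WDR1, which helps cofilin take filaments apart, fell by 0.55 ± 0.03, as did ROCK1, the kinase through which RHOA drives contraction, by 0.55 ± 0.05. SVIL, supervillin of the gelsolin family, rose by 0.66 ± 0.13. The SRF cofactor MRTFA, which senses free actin monomers, rose by 0.45 ± 0.05, while SRF itself rose by 0.17 ± 0.05.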

How the data were processed

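RNA-seq of MV4-11 cells was analysed, with 2 sh-NC and 2 sh-IRF1 libraries. The submitters' processing notes name HISAT2 2.0.5 and hg38, and the counting tool and strand setting are not given in the sources used here. The deposited values are a normalized signal, in which the authors divided each gene's reads by 1 size factor per library. Whole reads were recovered for 100% of values (within 0.001 of a read), 17635908 to 18695337 a library. Symbols were found for 23456 of 23622 identifiers.

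Genes that reached 10 in 2 or more libraries were fitted with limma 3.58.1 (R 4.3.3, trend and robust) on log2(value + 1), and fold changes are on this scale. Benjamini-Hochberg adjustment ran over 14120 genes. An exact permutation test of 2 against 2 cannot go below 0.33. edgeR 4.0.16 and DESeq2 1.42.0 on the recovered reads were alternatives. On simulated data for this comparison (14047 genes), limma recovered 199 of 200 changed genes and called 7 unchanged ones. The log2 fold changes of the changed genes had a mean size of 0.996, so recovery of smaller differences was not tested. Lengths, GC content and shared exons came from GENCODE 44. The members and gene lists were chosen with earlier results of these data known. Members given in full were ACTB, ACTG1, FLNA, PLEC and the 2 highest and 2 lowest log2 fold changes of each role. Other actin genes were the 10 largest changes with an adjusted p under 0.05, beyond log2 0.5, groups apart and a mean of 50 or more. Counts over some gene groups are not reported here.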

Additional observations from a re-analysis of the deposited data

How the results depend on the processing

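Calls and values were recomputed under 3 scalings, other pseudocounts and filters, edgeR, DESeq2, no robust setting, a replicate block, a GC correction and without each library. At a log2 fold change beyond 0.5, 6 members were higher and 5 lower, and beyond 1 there were 0 and 0 by limma. For the other actin genes the counts were 12 and 9 beyond 0.5 and 3 and 3 beyond 1. For all genes they were 1168 and 1067, then 389 and 318. The member median was 0.12 when scaled by total reads, and 0.063 to 0.12 without 1 library, highest without sh-NC replicate 1. Over the members and other genes given in full, 485 of the recomputed log2 fold changes kept direction and side of the threshold, 8 kept direction and lost the call, and 2 reversed. Those were CDC42 without sh-NC replicate 1 (0.13) and without sh-IRF1 replicate 2 (0.0042), with a range of -0.61 to 0.13 without 1 library. The cause was not tested.

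Same-numbered replicates did not deviate together (correlation -0.0154). With the replicate block, 26 members were higher and 15 lower, 38 and 32 of the other actin genes, and 2903 and 3147 of all genes. Without a spike-in, a change in total RNA per cell cannot be seen.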
